A study of Homo sapiens with 18 samples.

Results

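ETV1, ETV4 and ETV5 make up the PEA3 group of ETS transcription factors, and the accessible chromatin around these 3 genes was examined in PC9 cells. Members were the regions called in any of 18 ATAC-seq libraries, an assay that reads open chromatin from where a transposase can cut it, within 50 kb of the gene bodies, with peaks of different libraries merged wherever they shared 1 bp. This gave 20 regions, 8 at ETV1, 7 at ETV4 and 5 at ETV5, of 79483 regions called on chromosomes 1 to 22 and X. Positions are in hg19, counted from 1, and distances are from the gene start, whose position was known only to the nearest kb. All 3 genes lie on the minus strand, so that a positive distance points into and past the gene and a negative one upstream of it.

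PC9 is a human cell line from a lung adenocarcinoma, and its growth relies on a mutant EGFR, the kinase that erlotinib inhibits. The libraries formed 6 groups of 3, lettered a, b and c. The group named PC9 received the vehicle DMSO, and the DTP (drug-tolerant persister) group was made of PC9 cells that survived 8 days in 1 µM erlotinib. The other 4 groups were PC9 cells given DMSO or 1 µM erlotinib for 12 h and then sorted by the Aldefluor assay, a fluorescent readout of aldehyde dehydrogenase (ALDH) activity, into ALDH-low and ALDH-high fractions. All cells were frozen and thawed before the assay. Whether libraries of a group came from separate cultures is not stated, so a p-value here reflects differences between libraries, possibly technical ones.

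PEA3 factors bind DNA through the ETS domain, which reads a GGAA core, and act downstream of receptor tyrosine kinases. Signalling through RAS and ERK raises transcription of these genes, in part by relieving repression by Capicua, a repressor that binds sites of the TGAATGAA and TGAATGGA type, and the COP1 ubiquitin ligase limits the proteins. In lung adenocarcinoma the group is known as a readout and effector of this pathway, which erlotinib blocks at the receptor. ETV1 is also known for its chromosomal fusions in prostate cancer and its role in gastrointestinal stromal tumours, ETV4 for promoting invasion, and ETV5 for roles in lung epithelial and germline stem cells.

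The RefSeq promoter of ETV1 (GRCh38.p14, minus strand, chr7:13991426-13991675) is shown, since no such window for ETV4 or ETV5 was at hand. This promoter holds cores that ETS factors, Capicua and E-box proteins are known to read. It covers the 250 bases before the most upstream of the gene's listed starts. Capitals mark the ETS core GGAA (TTCC where it lies on the opposite strand), the E-box CACGTG and the Capicua-type octamer TGAATGGA:
ETV1 promoter: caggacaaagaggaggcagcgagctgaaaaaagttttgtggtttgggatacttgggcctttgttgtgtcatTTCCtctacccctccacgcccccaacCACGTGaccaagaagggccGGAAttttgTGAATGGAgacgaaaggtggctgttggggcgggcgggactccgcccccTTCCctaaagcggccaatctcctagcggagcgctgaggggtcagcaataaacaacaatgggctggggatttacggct
Both strands were searched in this window and in 34943 RefSeq promoter windows of the same length. The GGAA core occurred 3 times, 179, 134 and 77 bases before the start, and 92.7% of promoters held it at least once. The Capicua-type TGAATGGA began 125 bases before the start and occurred in 0.818% of promoters. The E-box CACGTG began 153 bases before the start, and 6.32% of promoters held one. The GC-box core GGGCGG, which overlaps none of the marked motifs, had 3 matches and occurred in 42.5% of promoters. The longer ETS site CCGGAAG (8.48% of promoters), which contains GGAA, the AP-1 site TGANTCA (6.59%), the CRE TGACGTCA (1.63%) and TGAATGAA (1.4%) had no match among these letters. A match describes the letters only, and the window was not placed against the hg19 peaks.

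Across the loci, 7 of the 20 regions were called in all 18 libraries, 9 in 2 to 17 and 4 in a single library. Over the whole union 17.7% of regions were called in all 18 libraries and 21.2% in 1. ETV1 and ETV5 each had 3 regions called throughout, among them the gene starts, whereas ETV4 had 1, which lay 43.7 kb past its 3′ end. By position, 3 regions covered the gene starts, 7 lay within the gene bodies, 5 upstream and 5 downstream. All 5 ETV5 regions were at the gene start or on its downstream side, and none was called upstream. In the gene table at hand, DHX8, which encodes an RNA helicase, lies within 50 kb of ETV4, DGKG, which encodes a diacylglycerol kinase, lies within 50 kb of ETV5, and ETV1 has no protein-coding neighbour in that range.

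**Figure D1:**
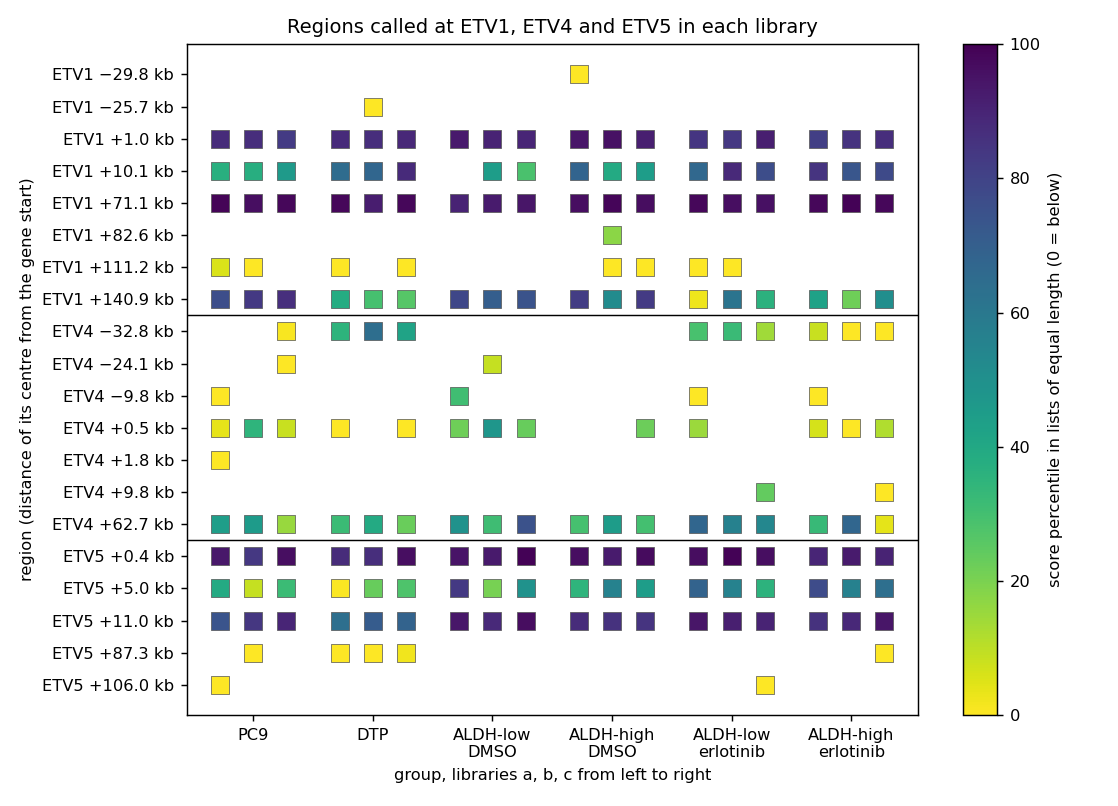
Regions called at the 3 loci, 1 row per region by distance of its centre from the gene start and 1 column per library; a filled square means called, and its colour gives the score percentile in lists of equal length (0 means outside that list). The ETV1 and ETV5 starts are called in all 18 libraries, and the ETV4 region 32.8 kb upstream in all 9 erlotinib libraries and 1 of 9 vehicle libraries.

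Each peak carried a score from the authors' peak caller, used here only to rank peaks within a list. The lists held 26228 to 45244 peaks. In ALDH-low cells they were longer after 12 h of erlotinib (32586 to 40675) than after DMSO (26228 to 26444). The same held in ALDH-high cells (34324 to 40717 against 30339 to 32824). DTP lists (42207 to 45244) were longer than PC9 lists (39397 to 41834), and ALDH-high DMSO lists were longer than ALDH-low DMSO lists. A region was therefore described by its score percentile among the 26225 highest-scoring peaks of each library, where 100 is the highest score and 0 means outside that list. Of the 20 regions, 16 reached that list in at least 1 library. The term gained is kept for a region that was in every list of one group and absent from every list of the group it was compared with, and lost for the opposite pattern. Both were counted in the full lists, whose length differed as above, and the part of list length was not tested.

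The ETV1 start region (chr7:14028291-14031806) was called in all libraries and was 3516 bp wide, wider than 99.2% of all regions, whose median was 999 bp. Its percentiles were 87.6, 86.9 and 82.6 in PC9 libraries a, b and c and 88.0, 87.0 and 88.9 in DTP. In ALDH-low cells they were 93.2, 90.3 and 89.6 under DMSO and 84.6, 83.7 and 91.4 under erlotinib. In ALDH-high cells they were 94.5, 95.5 and 91.6 under DMSO and 81.4, 85.5 and 86.9 under erlotinib. The start thus stayed among the high-scoring peaks of each library. The ALDH-high groups did not overlap, with erlotinib lower, whereas the ALDH-low groups overlapped through library c. Over the 12 sorted libraries the percentile differed by -6.86 points with erlotinib (exact two-sided permutation p = 0.015 within fractions, Benjamini-Hochberg adjusted p = 0.135 over all regions). In PC9 and DTP the values overlapped, with a difference of 2.30 points.

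The highest-ranking member lay within the ETV1 gene body 71.1 kb from the start (chr7:13959200-13960676), with a median percentile of 97.5 over the 18 libraries. It was called in all of them, at 99.2, 96.3 and 98.3 in PC9, 98.4, 92.2 and 98.3 in DTP, 90.5, 92.9 and 94.2 in ALDH-low DMSO, and 98.4, 96.2 and 96.0 in ALDH-low erlotinib. The ALDH-high percentiles were 96.1, 98.6 and 96.7 under DMSO and 98.4, 99.6 and 98.4 under erlotinib. The ALDH-low groups did not overlap and the ALDH-high and PC9 to DTP groups did. With erlotinib the sorted libraries were 3.00 points higher (exact permutation p = 0.015, adjusted p = 0.135).

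A pair of further ETV1 regions had the largest differences in percentile of any member between treatments in the sorted libraries; they were chosen for description after their values were seen. The first lies within the gene body 10.1 kb from the start (chr7:14020352-14021505) and was called in 17 libraries, all but ALDH-low DMSO a. Its percentiles were 36.8, 37.3 and 46.0 in PC9 and 65.0, 67.5 and 88.0 in DTP. In the ALDH-low fraction they were 0, 44.8 and 28.9 under DMSO and 66.6, 88.6 and 76.6 under erlotinib, and in the ALDH-high fraction 68.2, 39.1 and 44.7 against 85.1, 73.2 and 77.7. Every erlotinib library was above every library of its DMSO counterpart in the 3 comparisons, with mean differences of 33.5 points in DTP, 52.7 in the ALDH-low and 28.0 in the ALDH-high fraction. Over the sorted libraries the difference was 40.3 points (exact permutation p = 0.005, the smallest this design allows, adjusted p = 0.0638).

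The second lies downstream of ETV1, 40.9 kb past its 3′ end (chr7:13889404-13890700), and was called in all 18 libraries. Its percentiles were 76.4, 83.5 and 86.4 in PC9 and 38.4, 29.3 and 26.5 in DTP. They were 78.6, 70.4 and 74.3 in ALDH-low DMSO against 2.47, 61.4 and 36.0 in ALDH-low erlotinib, and 82.4, 52.3 and 82.6 in ALDH-high DMSO against 42.4, 22 and 51.0 in ALDH-high erlotinib. Here every erlotinib library was below every library of its DMSO counterpart, with differences of -50.7, -41.2 and -34.0 points for DTP, ALDH-low and ALDH-high. Over the sorted libraries the difference was -37.6 points (exact permutation p = 0.005, adjusted p = 0.0638). ETV1 therefore held an intragenic region that ranked higher and a downstream region that ranked lower with erlotinib in the same libraries, and neither passed the adjusted threshold of 0.05. How many regions of the union were likewise separated in every comparison of erlotinib with vehicle was not counted.

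**Figure D2:**
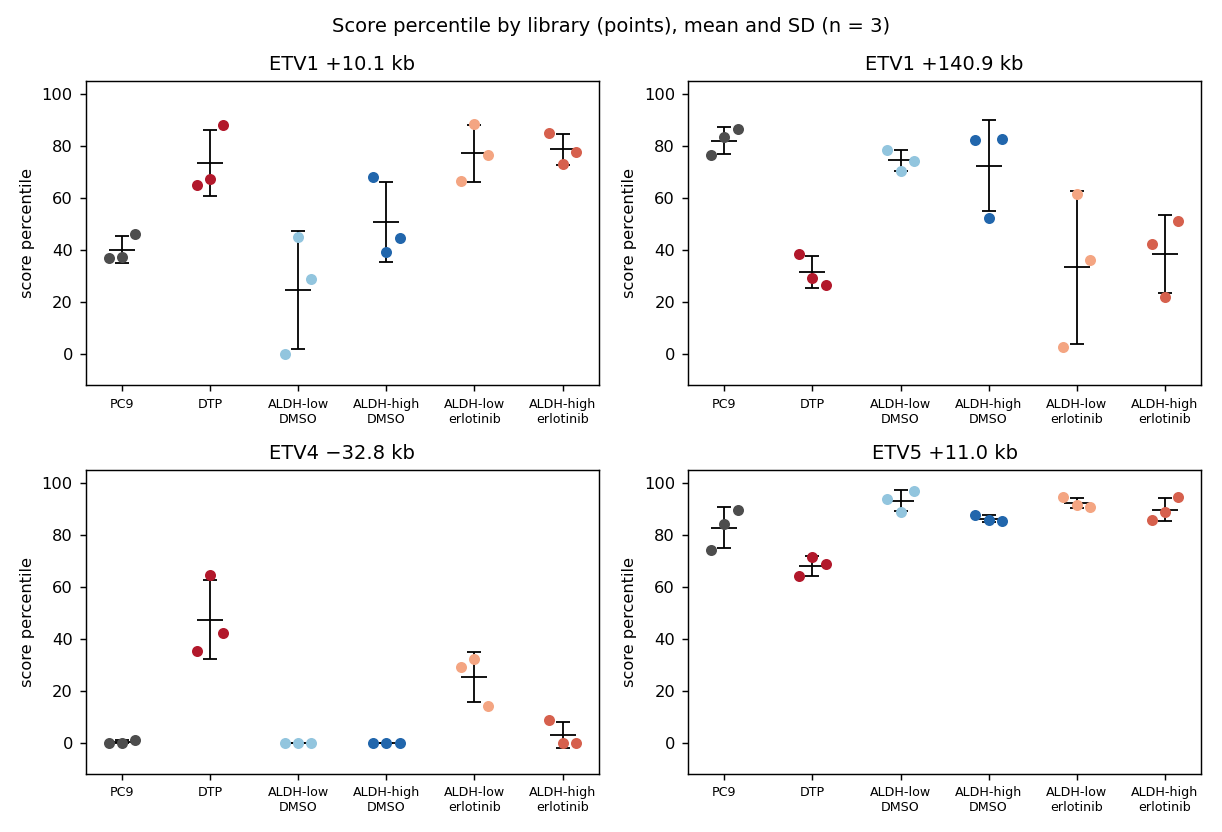
Score percentile in lists of equal length of 4 regions in each library (points, libraries a to c from left to right), with mean and SD of the 3 libraries of a group. With erlotinib the ETV1 region at +10.1 kb is higher and that at +140.9 kb lower without overlap in each of the 3 comparisons, and the ETV4 region at -32.8 kb is at 0 in all 6 sorted DMSO libraries.

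The remaining 4 ETV1 regions were weak. A region 11.2 kb past the 3′ end (chr7:13919290-13920393) was called in 4 of 9 erlotinib and 4 of 9 vehicle libraries, and only PC9 library a placed it in the equal-length list, at 5.72. The other 3 were called in 1 library each, within the gene body in ALDH-high DMSO b and upstream in DTP b and ALDH-high DMSO a.

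At ETV4, the gene start region (chr17:41622651-41624435, 1785 bp) was called less regularly than those of the other 2 genes, in 13 libraries. It was called in all 3 libraries of PC9, ALDH-low DMSO and ALDH-high erlotinib, in DTP a and c, in ALDH-high DMSO c and in ALDH-low erlotinib a. Its percentiles were 3.69, 35.0 and 8.30 in PC9 and 0 in all 3 DTP libraries. They were 21.9, 47.3 and 23.3 in ALDH-low DMSO against 15.2, 0 and 0 in ALDH-low erlotinib, and 0, 0 and 22.4 in ALDH-high DMSO against 6.39, 0 and 12.1 in ALDH-high erlotinib. It was lower without overlap in DTP than in PC9 (difference -15.7) and in ALDH-low cells with erlotinib (-25.8), and the ALDH-high groups overlapped. Without PC9 b the difference in DTP was -6.00. Over the sorted libraries the difference was -13.5 points (exact permutation p = 0.09, adjusted p = 0.359). The percentile was thus 23.3 or lower in all libraries but PC9 b and ALDH-low DMSO b. Its deposited scores ranged from 71.7 in DTP a to 160 in ALDH-low erlotinib a, where the lowest score in any list was 70.

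**Figure D3:**
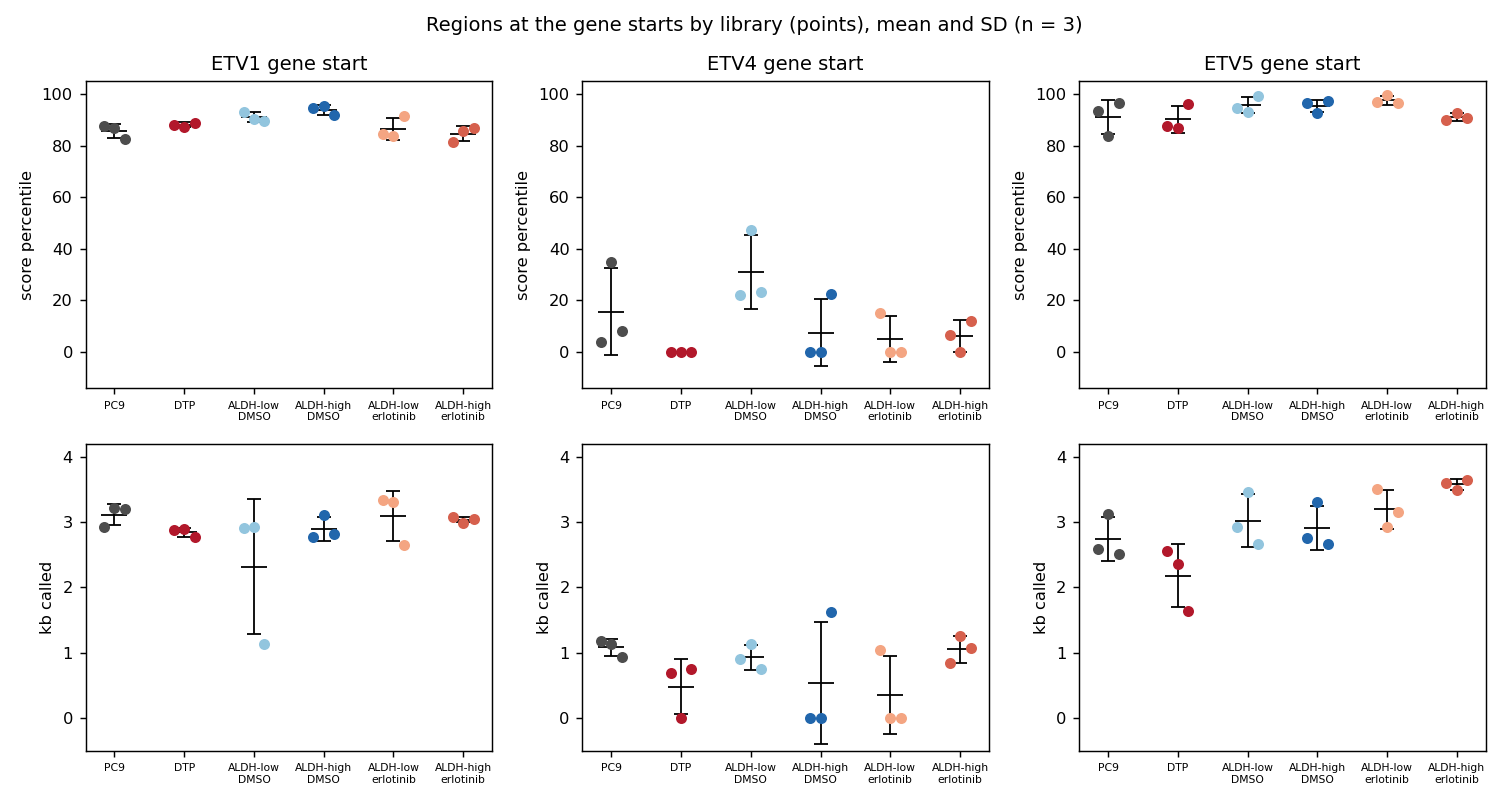
Regions at the 3 gene starts in each library (points), with mean and SD of 3 libraries; upper row, score percentile in lists of equal length; lower row, kb of the region called. The ETV1 and ETV5 starts lie above 80 in every library, while the ETV4 start lies between 0 and 47.3.

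The member whose calls differed between treatments lay 32.8 kb upstream of the start (chr17:41655887-41657636, 1750 bp). This region was called in all 9 erlotinib libraries (DTP, ALDH-low and ALDH-high) and in 1 of 9 vehicle libraries, PC9 c. Its percentiles were 35.4, 64.4 and 42.1 in DTP, 29.2, 32.1 and 14.2 in ALDH-low erlotinib, and 8.50, 0 and 0 in ALDH-high erlotinib. In PC9 they were 0, 0 and 1.09, and in all 6 sorted DMSO libraries 0. The DTP libraries were thus the highest, and in ALDH-high cells libraries b and c held it only below the equal-length list, with deposited scores of 89.6 and 99.9 against 232 in DTP b.

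Among sorted libraries its calls rose with erlotinib, from 0 of 6 to 6 of 6 (exact two-sided permutation p = 0.005, Benjamini-Hochberg adjusted p = 0.0294 over the 6480 regions whose call pattern could reach p below 0.05). It was the only member among those 6480, of which 42.8% were higher and 5.56% lower with erlotinib at this threshold. The adjusted p was 0.226 over all 49820 regions called in some but not all sorted libraries, a family chosen after the data were seen, and over it no region passed at 0.05 while 3135 had an unadjusted p below 0.05. With lists of equal length the region was held in 4 of the 6 sorted erlotinib libraries and was not among the testable regions. List length moves with treatment in the same direction, and its part in the call was not tested. In score percentile the difference over the sorted libraries was 14 points (exact permutation p = 0.05, adjusted p = 0.249) and that between DTP and PC9 47.0 points.

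The most like regions outside the 3 loci, by Pearson correlation of the percentile over the 18 libraries, were on chromosome 1 (chr1:56855146-56856281, r = 0.953), chromosome 20 (chr20:18243998-18245104, r = 0.949) and chromosome 17 (chr17:33345507-33346610, r = 0.945). These correlations are descriptive, since the points share libraries and groups. Another 35 regions of the union were called in the same 10 libraries and no others.

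The ETV4 region called in all 18 libraries lies 43.7 kb past the 3′ end (chr17:41560688-41561854), on the side of DHX8. Its percentiles ran from 15.6 to 45.6 in PC9, 23 to 39.1 in DTP, 30.9 to 74.8 in ALDH-low DMSO, 53.8 to 67.4 in ALDH-low erlotinib, 29.6 to 45 in ALDH-high DMSO and 4.18 to 67.5 in ALDH-high erlotinib. Groups overlapped in all these comparisons, and the sorted libraries differed by 3.82 points between treatments (exact permutation p = 0.735). The other 4 ETV4 regions were called in 1 to 4 libraries each.

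At ETV5, the gene start region (chr3:185824594-185828594) was 4001 bp wide, wider than 99.6% of all regions, and was called in all libraries. Its percentiles were 93.4, 83.9 and 96.5 in PC9 and 87.6, 86.8 and 96.3 in DTP. They were 94.7, 93.2 and 99.3 in ALDH-low DMSO and 96.8, 99.4 and 96.4 in ALDH-low erlotinib, and 96.3, 92.6 and 97.2 in ALDH-high DMSO and 89.8, 92.7 and 90.5 in ALDH-high erlotinib. The lowest of the 18 values was 83.9, in PC9 b, and erlotinib and vehicle groups overlapped in each comparison. Under erlotinib the ALDH-high libraries all lay below the ALDH-low ones. The sorted libraries differed by -1.28 points with erlotinib (exact permutation p = 0.43). The length called there was 2738 ± 335 bases in PC9 and 2179 ± 487 in DTP (mean ± SD, n = 3). Under DMSO and erlotinib it was 3015 ± 405 and 3194 ± 296 in ALDH-low cells, which overlapped, and 2908 ± 343 and 3575 ± 80 in ALDH-high cells, which did not. How many regions of the union separated in called length was not counted, and lists were longer after erlotinib.

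An ETV5 region chosen after its values were seen, within the gene body 11 kb from the start (chr3:185814984-185816936) was also called throughout. Its percentiles were 74.0, 84.2 and 89.6 in PC9 and 63.9, 71.4 and 68.6 in DTP, so that all 3 DTP libraries lay below all 3 PC9 libraries, with a difference of -14.6 points. In ALDH-low cells they were 93.9, 88.6 and 96.7 under DMSO and 94.5, 91.5 and 90.5 under erlotinib, and in ALDH-high cells 87.6, 85.6 and 85.1 against 85.7, 88.8 and 94.4. These groups overlapped, and the sorted libraries differed by 1.31 points between treatments (exact permutation p = 0.505). The separation in DTP was thus not seen in the sorted cells after 12 h, though whether the effects differ was not tested. Those comparisons differ in sorting as well as in time, and the 2 cannot be told apart. The bases called in it were 1088, 1029 and 1130 in ALDH-low DMSO and 1390, 1535 and 1567 in ALDH-low erlotinib, which did not overlap, and 1502, 965 and 1109 in ALDH-high DMSO and 1817, 1337 and 1343 in ALDH-high erlotinib, which did. As for the gene start, the share of all regions separated in called length was not counted.

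The third ETV5 region called throughout lies 5.01 kb from the start (chr3:185821390-185822590). It ranked lower and varied widely, from 8.89 to 39.3 in PC9, 0.702 to 27.9 in DTP, 20.3 to 83.6 in ALDH-low DMSO and 35.8 to 68.7 in ALDH-low erlotinib. In ALDH-high cells it ranged from 34.8 to 56.0 under DMSO and 56.6 to 77.0 under erlotinib, which did not overlap (difference 20.6). Over both fractions the difference was 11.5 points (exact permutation p = 0.31), and it was 3.75 without ALDH-low DMSO b and 19.6 without ALDH-low DMSO a. The remaining 2 ETV5 regions lay downstream; the one 24.3 kb past the 3′ end (chr3:185739270-185740110) was called in 5 libraries, all 3 of DTP, PC9 b and ALDH-high erlotinib c, with scores from 70.8 to 124.

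Counted over the 3 loci, no member was gained or lost in DTP against PC9, where 6.75% of 65904 regions were gained and 3.68% lost. A single PC9 library decided this count: without PC9 c the ETV4 region 32.8 kb upstream was gained, and without PC9 b the ETV5 region 24.3 kb past the 3′ end, 1 member in each case. With 12 h of erlotinib 1 member was gained in ALDH-low cells and 1 in ALDH-high cells, in both cases the ETV4 region 32.8 kb upstream, and none was lost. The background was 6.82% gained and 0.887% lost in ALDH-low cells, and 4.52% gained and 0.998% lost in ALDH-high cells. No member was gained or lost in ALDH-high against ALDH-low cells, where the background was 1.28% gained and 0.14% lost under DMSO and 0.893% gained and 0.446% lost under erlotinib. The gain at ETV4 in ALDH-high cells was not kept with a score of at least 100, with lists of equal length or when peaks had to cover 50% of the region.

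In score percentile, 2 members were higher and 3 lower without overlap in DTP against PC9, against 15.1% and 15.2% of the regions ranked there. The higher ones were ETV1 at +10.1 kb and ETV4 at -32.8 kb, and the lower ones the ETV1 downstream region, the ETV4 start and ETV5 at +11 kb. In ALDH-low cells 3 members were higher with erlotinib (ETV1 at +10.1 and +71.1 kb, ETV4 at -32.8 kb) and 2 lower (ETV1 downstream, ETV4 start), where 11.5% and 9.84% of regions were. In ALDH-high cells 2 were higher (ETV1 at +10.1 kb, ETV5 at +5.01 kb) and 2 lower (ETV1 downstream, ETV1 start), where 10.3% and 9.45% were. With 3 against 3 libraries the smallest exact permutation p is 0.1, so none of these separations could pass a threshold of 0.05.

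Over all ranked members the median difference was -1.78 points in DTP against PC9 (12 members, 4 higher and 8 lower) beside 0.23 over all regions. It was 1.82 in ALDH-low cells (13 members, 7 higher and 6 lower) beside -0.35, and -0.0013 in ALDH-high cells (11 members, 5 higher and 6 lower) beside -0.31. Single regions lay far from these medians on either side. Of all ranked regions, 50.7% were higher in DTP than in PC9. With 12 h of erlotinib 48.5% were higher in ALDH-low cells and 48.6% in ALDH-high cells. In the test over the 12 sorted libraries, 4 of the members had an unadjusted p below 0.05, 2 higher and 2 lower with erlotinib, all at ETV1, where 9.54% and 8.69% of all 47481 regions were. Members tested there were, of the 16 in any equal-length list, those in the list of a sorted library. Their counts were not tested against these shares. No region of the union reached an adjusted p below 0.05 in this permutation test, although 8656 had an unadjusted p below 0.05.

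**Figure D4:**
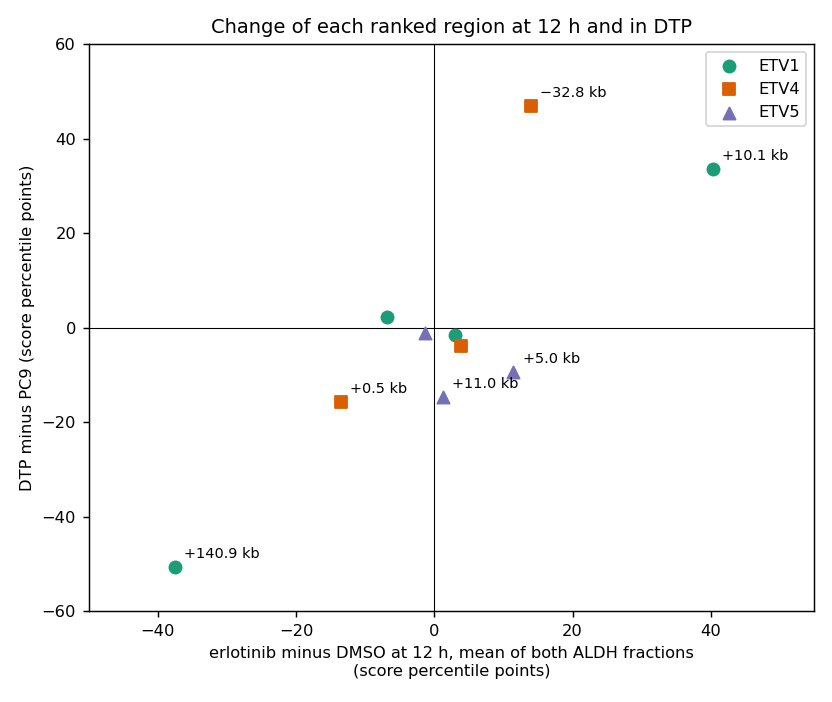
Difference in score percentile of each ranked region after 12 h of erlotinib in sorted cells (horizontal axis, mean of both ALDH fractions) and in DTP against PC9 (vertical axis); the 2 comparisons share no library. ETV1 at +10.1 kb and ETV4 at -32.8 kb are higher in both, and ETV1 at +140.9 kb, the ETV4 start and, slightly, the ETV5 start are lower in both. The ETV1 start, ETV1 at +71.1 kb, ETV4 at +62.7 kb and ETV5 at +5.01 and +11 kb differ in direction. The share of all regions alike in direction was not counted.

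The bases covered by peaks within 50 kb of each gene were compared next; the window, and with it the count, differs in length between genes. At ETV5 the sorted libraries covered 4930, 5516 and 4589 bases in ALDH-low DMSO and 5812, 5156 and 6562 in ALDH-low erlotinib, and 5397, 5373 and 4881 in ALDH-high DMSO and 6295, 6007 and 6731 in ALDH-high erlotinib. The ALDH-high groups did not overlap and the ALDH-low groups did, and the share of all windows separated in this way was not counted. Erlotinib libraries covered 980 bases more on average (exact permutation p = 0.01, adjusted p = 0.0579 over 20400 windows, made up of 100 kb windows and the 3 loci). The difference was 739 bases with lists of equal length (exact permutation p = 0.01, adjusted p = 0.0880). Windows that differed between treatments were common: 2547 of the 20400 tested passed an adjusted p of 0.05, a count not split by direction. Covered length grows with the number and the width of peaks in a list, and per Mb called in the library the direction at ETV5 turned. In ALDH-low cells it was then 173 ± 16.1 bases per Mb under DMSO and 142 ± 29.2 under erlotinib, and for ALDH-high 153 ± 8.16 and 148 ± 8.28 (mean ± SD, n = 3), with a difference of -18.0 (exact permutation p = 0.145, adjusted p = 0.399).

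At ETV4 the covered length was 2179 ± 671 bases in ALDH-low DMSO, 2831 ± 782 in ALDH-low erlotinib, 1425 ± 1055 in ALDH-high DMSO and 3072 ± 326 in ALDH-high erlotinib (mean ± SD, n = 3). Treatment made a difference of 1149 bases (exact permutation p = 0.04, adjusted p = 0.130), which was 354 bases with lists of equal length (exact permutation p = 0.46). It was 265 bases with a flank of 20 kb, which leaves out the region 32.8 kb upstream (exact permutation test, adjusted p = 0.728). At ETV1 the difference was 234 bases (exact permutation p = 0.675), and it turned to -39.7 bases per Mb called (exact permutation p = 0.02, adjusted p = 0.125). The covered length itself differed by 1405 bases in ALDH-low and -937 bases in ALDH-high cells, and the difference between the fractions was -2342 bases (exact permutation p = 0.02, adjusted p = 1 over all windows). With lists of equal length that difference was -1054 bases (exact permutation p = 0.145). Between PC9 and DTP, covered length was 6047 ± 658 and 6141 ± 183 bases at ETV1, 2817 ± 1029 and 2713 ± 428 at ETV4, and 5024 ± 784 and 4579 ± 309 at ETV5 (exact permutation p = 0.8, 1 and 0.5). With 3 against 3 libraries the smallest p of that test is 0.1, so no such difference could pass a threshold of 0.05.

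**Figure D5:**
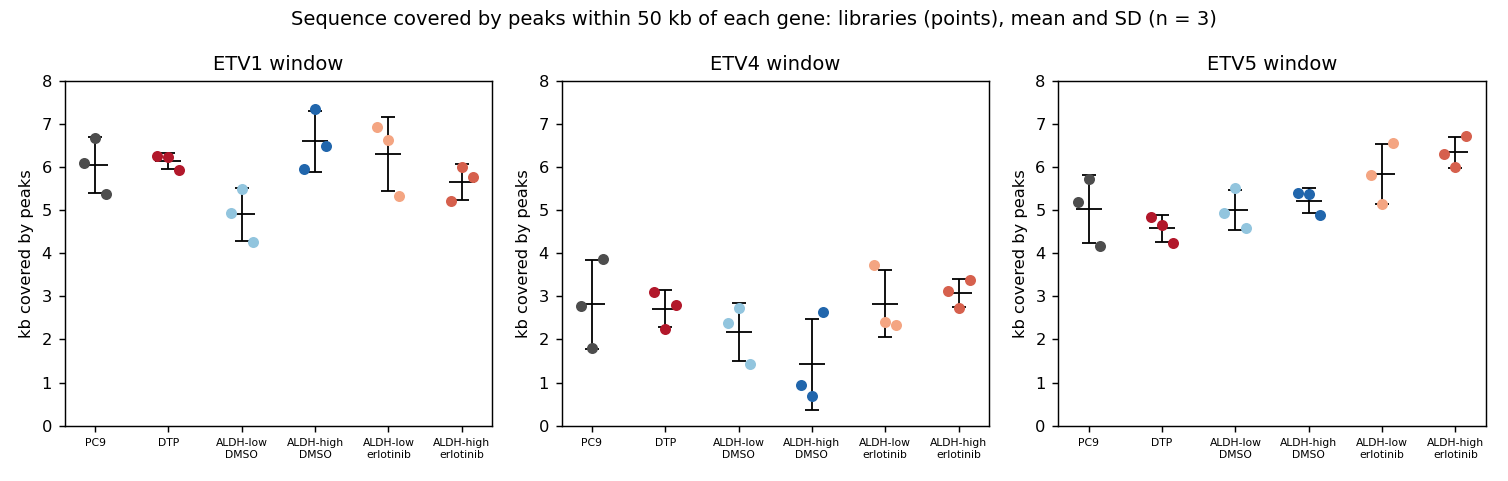
Length covered by peaks within 50 kb of each gene in each library (points, in kb), with mean and SD of 3 libraries. All ALDH-high erlotinib libraries lie above all ALDH-high DMSO libraries at ETV5 and ETV4, whereas at ETV1 the ALDH-low DMSO and ALDH-high erlotinib groups have the lowest means. With lists of equal length, which are not drawn, the ALDH-high groups stayed apart at ETV5 and overlapped at ETV4. Lists were longer after erlotinib, and the share of all windows separated in this way was not counted.

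Between the ALDH fractions no member was gained or lost, but a few differed in score percentile without overlap. Under DMSO, ETV1 at +71.1 kb was higher in ALDH-high than in ALDH-low cells (97.1 ± 1.29 against 92.5 ± 1.87, mean ± SD, n = 3) and ETV5 at +11 kb was lower (86.1 ± 1.36 against 93.1 ± 4.10). These were 1 member in each direction, where 3.82% and 3.54% of the 40583 ranked regions were higher and lower. Under erlotinib 2 members were lower in ALDH-high cells and none was higher, where 6.01% and 6.15% of 37529 regions were. They were the ETV5 start (91.0 ± 1.51 against 97.5 ± 1.65) and the ETV4 region 32.8 kb upstream (2.83 ± 4.91 against 25.2 ± 9.63). None of the 4 did so under both treatments, and with 3 against 3 libraries none could pass a threshold of 0.05.

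The treatment effect at the ETV4 region 32.8 kb upstream differed between the fractions by -22.3 points (exact permutation p = 0.1, adjusted p = 1). Its percentile was 0 in all sorted DMSO libraries, so this repeats the comparison of the fractions under erlotinib. The smallest p that the permutation test could give there was 0.1. No member was testable for calls over fraction; of the 2210 regions that were, none passed the adjusted threshold in the permutation test and 108 had an unadjusted p below 0.05. The median percentile difference of members, ALDH-high against ALDH-low, was -2.48 points under DMSO (12 members, 4 higher and 8 lower) and -1.97 under erlotinib (11 members, 5 higher and 6 lower). Over all ranked regions it was -0.15 under DMSO, with 49.1% higher, and -0.14 under erlotinib, with 49.2% higher. The member counts were not tested against these shares. These comparisons share their libraries with the treatment comparisons above.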

How the data were processed

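Each of the 18 libraries had 1 deposited peak list in which the authors' caller gave every peak a score on an unstated scale. Per the submitters' processing notes, BWA, MACS 1.4.2 and hg19 were used; further settings were not given in the sources used here. Depth is unknown, so a missing peak means only that none was called. Peaks were merged with Python 3.11.15 and the union was checked against bedtools 2.31.1. Between 3 and 7 peaks per library lay on other sequences and were left out.

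Tests were exact two-sided permutation tests over libraries, with treatment exchanged within ALDH fraction (400 assignments) and Benjamini-Hochberg adjustment over all regions tested (for calls, those that could reach p below 0.05; for percentiles, those in an equal-length list of a sorted library) or all windows; they were tested on simulated data. The members, lists and tests were chosen with earlier results of these data known. Values per library were to be given for gene starts, for regions gained or lost and for the highest-ranking region of each locus; other regions were added after their values were seen. The planned list of pathway genes and marker checks of the cell line were not analysed here, since hg19 gene positions were not used.

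Alternatives were a score of at least 100, lists of equal length, 50% coverage of a region, a flank of 20 kb, each library left out, a replicate block and, added after seeing the data, another family for the calls and covered bases per Mb called. Libraries with the same letter did not deviate together: the correlations of 15 pairs ran from -0.012 to 0.015.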

Additional observations from a re-analysis of the deposited data

Results flagged for a closer look

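The treatment difference in bases covered at ETV1 was not alike in the ALDH fractions. It was 1405 bases in ALDH-low cells (4902 ± 608 under DMSO, 6306 ± 854 under erlotinib) and -937 bases in ALDH-high cells (6598 ± 707 and 5660 ± 411; mean ± SD, n = 3). The difference between the fractions was -2342 bases (exact two-sided permutation p = 0.02, adjusted p = 1 over 20400 windows). ETV4 and ETV5 had differences of 995 bases (exact permutation p = 0.255) and 296 bases (exact permutation p = 0.615). At ETV1 the value was -1054 bases with lists of equal length (exact permutation p = 0.145) and -44.6 bases per Mb called (exact permutation p = 0.085), and the part of list length, which differs between these groups, was not tested further.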

How the results depend on the processing

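No member was lost in DTP against PC9, but 1 was with a score of at least 100, with lists of equal length and with 50% of a region covered. The member gained with erlotinib in ALDH-high cells became 0 under the same 3 settings, and 1 member was lost in ALDH-high against ALDH-low erlotinib with 50% covered. Leaving out each library in turn gave 0 to 1 members gained in DTP against PC9 and in both fraction comparisons, 1 to 2 gained with erlotinib in both fractions, and 0 to 1 lost in these 4 sorted comparisons. The libraries that moved these counts were PC9 b and c, ALDH-low erlotinib a and c, and ALDH-high DMSO a and c.

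Covered bases at ETV5 differed between treatments by 911 with a score of at least 100 (exact permutation test, adjusted p = 0.0365), which passed the threshold, and by 800 to 1151 with a library left out. The adjusted p was 0.0880 with equal lists and 0.200 with the replicate block, and the direction turned per Mb called, at -18.0 for ETV5 and -39.7 for ETV1 (DTP against PC9 at ETV1, -16.0). The treatment difference at ETV1 ran from 72.8 to 477 bases with a library left out (lowest without ALDH-high DMSO a, highest without ALDH-low erlotinib c) and was 483 with a flank of 20 kb. The DTP against PC9 difference at ETV1 turned to -156 bases (score of at least 100), -450 (equal lists) and -20.0 (flank of 20 kb), and ran from -245 to 412 with a library left out; without PC9 c it was negative. At ETV4 it ran from -611 to 418, and was positive without PC9 c or DTP b. The difference between fractions turned to -965 (score of at least 100) and -130 bases (equal lists) at ETV4, and to -32.3 (score of at least 100) at ETV5, where it ran from -48.0 to 655 and was negative without ALDH-low erlotinib b. The percentile of the ETV4 region 43.7 kb past the 3′ end differed between treatments by -4.36 to 11.5. The cause was not tested for any of these.

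With the replicate block, which exchanges only libraries of the same letter, the smallest p is 0.03125 (64 assignments). The ETV4 region 32.8 kb upstream then had an adjusted p of 0.129 for calls, and the ETV1 regions at +10.1 kb and downstream had 0.271, in exact permutation tests. Its calls differed by a rate of 0.667 with equal lists or a score of at least 100 and 0.5 with 50% covered, where it was not testable, and with a library left out its adjusted p was 0.0364 to 0.0425. Libraries left out aside, 58 alternative values were either counts that did not change or covered bases that kept their direction and side of the threshold. Of the others, 7 counts changed, 9 differences in covered bases turned in direction and 1 came to pass the threshold. Some that kept their direction had other sizes: at ETV4 the treatment difference was 265 bases with a flank of 20 kb. Unknown depth limits all calls.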
